A study of Arabidopsis thaliana with 12 samples.

Results

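In aerial parts of Arabidopsis seedlings, 59 genes were low both in *octuple*, a mutant of 5 CBP60 genes and of *EDS1*, *PAD4* and *NDR1*, and in *quintuple*, a mutant of the CBP60 genes alone. They were chosen from the mean FPKM of 3 libraries per genotype, where FPKM is the fragment count of a gene scaled to its exon length and to the library total. With 0.1 added to each mean, WT and *triple* had to reach 1, and *octuple* and *quintuple* each had to be at most 0.5 times WT and at most 0.5 times *triple*. Of the 23784 genes of the table, 16455 reached 1 in WT and *triple*, and 59 of those (0.359%) met the whole rule. In *octuple* 78 genes were that low and in *quintuple* 2761, so the 59 made up 75.6% of the *octuple* list and 2.14% of the *quintuple* list. These levels chose the genes, and the differences of *octuple* and *quintuple* from *triple* and WT are therefore described below without a test.

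The libraries came from pools of 20 to 30 seedlings that were 2 weeks old and had been grown in long days, with 3 replicate libraries of each of 4 genotypes. *octuple* carries mutations in *CBP60b*, *CBP60c*, *CBP60d*, *CBP60e* and *CBP60f* together with *EDS1*, *PAD4* and *NDR1*, *quintuple* carries those in the 5 CBP60 genes alone, *triple* those in the other 3 alone (*eds1;pad4;ndr1*, called *epn* in the study), and WT is Col-0. The labels name no treatment, and they do not name the line of *quintuple* that was sequenced. *quintuple* seedlings die at about the age of sampling, according to the study's supplement, which limits them as a model of healthy tissue. Because RNA came from whole aerial parts, fewer cells of a type and less RNA per cell cannot be told apart in any value below.

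CBP60 proteins are transcription factors of plants that are named for binding calmodulin, the calcium sensor of the cell. *CBP60g* and *SARD1* of this family switch on salicylic acid synthesis during infection, whereas loss of *CBP60b* or of its whole clade leaves seedlings with defence running in the absence of a pathogen. *EDS1* and *PAD4* act after receptors of the TIR class and *NDR1* after many receptors of the coiled-coil class, so *octuple* is mutant in both branches of receptor-triggered immunity as well as in the clade. The 59 genes are the transcripts that stayed within the limit of the rule when these branches were mutated too, while 2702 other genes low in *quintuple* did not.

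The genes were mostly of low abundance, and most of them were higher in *octuple* than in *quintuple*. The median of their mean levels was 1.09 FPKM in *octuple*, 0.117 in *quintuple*, 3.70 in *triple* and 3.55 in WT. Among all genes that reached the minimum, the medians were 9.61 FPKM in *octuple*, 11.7 in *quintuple*, 9.20 in *triple* and 9.11 in WT. In WT 39 of the 59 were below 5 FPKM and 9 were above 10 FPKM. The ratio to WT had a median of 0.396 in *octuple* and of 0.0971 in *quintuple*, and the rule's own fold, the lower of WT and *triple* over the higher of *octuple* and *quintuple*, ran between 2.01 and 59.7 with a median of 2.36. In 16 genes this fold was at least 3.

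Counting set a floor for many of them. In *octuple* 2 genes had 0 counts in at least 1 library and 1 gene, *BT5*, had 0 counts in all 3, while in *quintuple* 25 genes had 0 counts in at least 1 library and 6 in all 3. In 34 of the 59 genes all 6 *octuple* and *quintuple* libraries lay below all 6 *triple* and WT libraries, and in the other 25 the libraries overlapped. Across all genes at the minimum, 2.11% separated in that way, a share that is given only for scale because the rule used these same values. The libraries of WT differed among themselves by over 3 times in 21 of the 59 genes, a spread that was not counted over all genes.

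**Figure D1:**
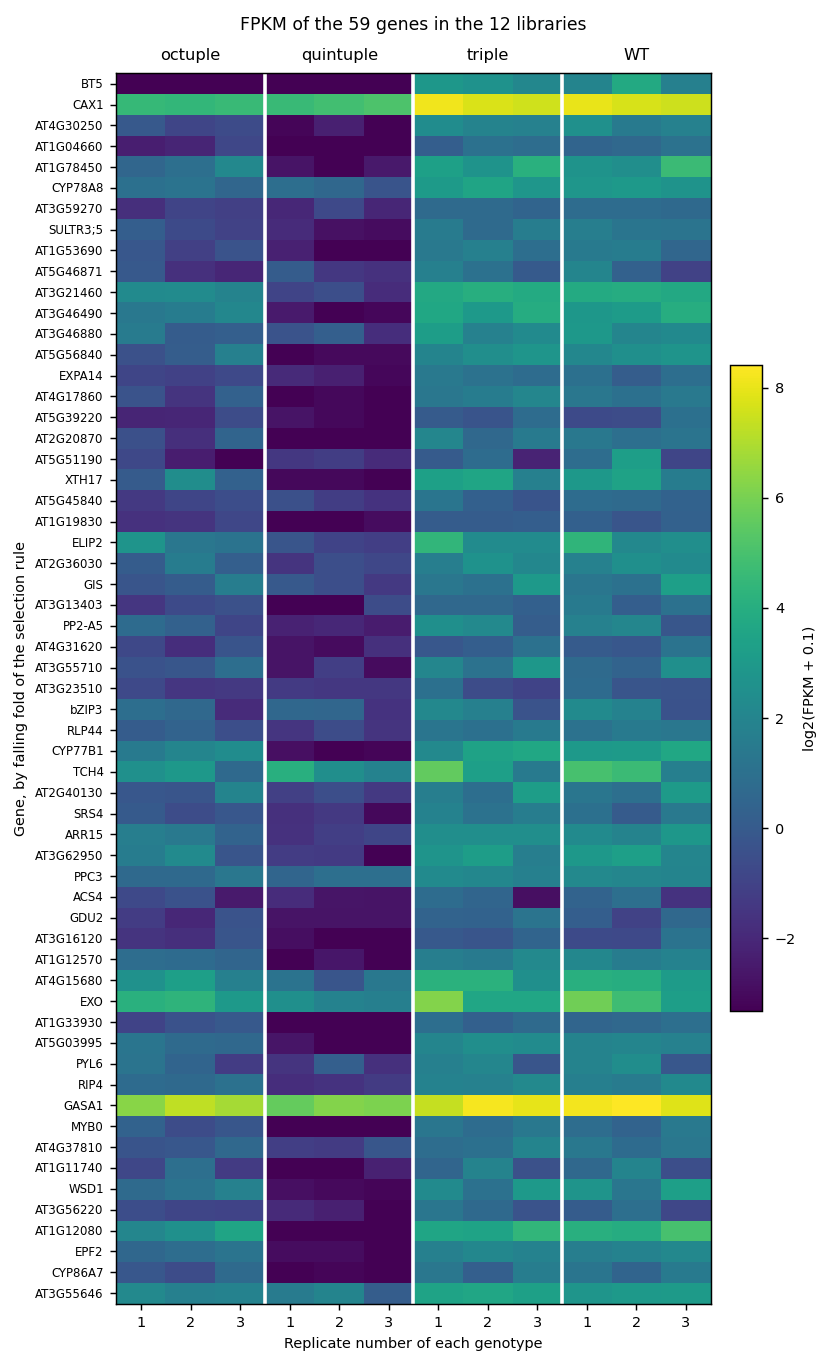
Heat map of the 59 genes (rows, ordered by the fold of the rule) in the 12 libraries (columns, 3 replicates each of *octuple*, *quintuple*, *triple* and WT), with the colour giving log2(FPKM + 0.1). The *octuple* block lies between the *quintuple* block, which is the darkest, and the *triple* and WT blocks, and *BT5* in the top row is at 0 in all 6 *octuple* and *quintuple* libraries.

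The threshold cut through a continuous range. Just inside it, *EPF2* had a fold of 2.02 with means of 1.76 FPKM in *octuple*, 0.0206 in *quintuple*, 3.70 in *triple* and 3.67 in WT. *CYP86A7* had a fold of 2.02 with means of 0.983 FPKM in *octuple*, 0.00446 in *quintuple*, 2.18 in *triple* and 2.08 in WT, and *AT3G55646* a fold of 2.01 with means of 3.80 FPKM in *octuple*, 2.54 in *quintuple*, 11.1 in *triple* and 7.74 in WT. Just outside, *AT2G36885* had a fold of 1.99 with means of 34.9 FPKM in *octuple*, 7.50 in *quintuple*, 69.4 in *triple* and 72.2 in WT. *AT4G36850* and *AT4G36105* followed with a fold of 1.97 each.

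Depth was close across the series, from 38698646 to 44294404 counted fragments per library. The genes of leaf mesophyll were present in every library, with 7 markers summing to between 24271 and 39744 FPKM in *octuple*, 3411 and 14826 in *quintuple*, 27758 and 41051 in *triple* and 27909 and 42083 in WT. The 7 root hair and endodermis markers in the table summed to at most 0.602 FPKM in any library, and 3 phloem markers to between 76.5 and 129 FPKM with overlap of all genotypes. None of the 8 mutated genes was among the 59. *EDS1* had 2.84 ± 0.728 FPKM in *octuple*, 45.0 ± 12.5 in *quintuple*, 1.89 ± 0.496 in *triple* and 7.88 ± 1.38 in WT (SD, n = 3 each), so it was lowest in both genotypes that carry its mutation. *CBP60c* had 9.91 ± 1.31 FPKM in *octuple*, 12.8 ± 1.89 in *quintuple*, 16.2 ± 1.15 in *triple* and 15.0 ± 1.57 in WT. *CBP60b* had 18.6 ± 2.27 FPKM in *octuple*, 92.6 ± 14.4 in *quintuple*, 14.96 ± 1.497 in *triple* and 16.03 ± 1.63 in WT, and *CBP60f* had 19.4 ± 6.89 FPKM in *octuple*, 11.0 ± 2.18 in *quintuple*, 6.30 ± 2.98 in *triple* and 4.55 ± 1.35 in WT. *CBP60b* and *CBP60f* thus had higher means in both mutants than in WT, as did *CBP60d* in *quintuple* (2.27 FPKM against 1.40 in WT), while *CBP60c* and *CBP60e* had lower means in both. Gene-level counts cannot tell whole from broken transcripts, so for the CBP60 genes they do not check the labels.

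*octuple* and *quintuple* were not set against each other by the rule, although the same libraries chose the genes, and the comparison asked whether loss of *EDS1*, *PAD4* and *NDR1* left the genes at the level they had in *quintuple*. Most were higher. The mean in *octuple* was above the mean in *quintuple* for 54 of the 59, with a median ratio of 3.53 and a range of 0.583 to 71.7. All *octuple* libraries lay above all *quintuple* libraries in 40 genes, the libraries overlapped in 19, and in 0 genes did *octuple* lie below. Of all genes at the minimum, 25% had *octuple* above *quintuple* without overlap and 36.6% had it below. A call in edgeR's quasi-likelihood test needed a fold of at least 2 and an adjusted p below 0.05, by Benjamini-Hochberg over all genes tested. The test called 34 of the 59 higher in *octuple* and 0 lower, where 16.7% of the 19643 genes tested were called higher and 14.9% lower. Of the other 25 genes, 15 were tested without a call and 10 had too few counts to be tested.

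With the replicate number as a block 31 of these 34 were called, at a background of 17.7%. DESeq2 called 44 of 58 genes tested higher (17.1% of all genes tested) and 0 lower. In edgeR with all 12 libraries in the fit, 41 of 59 were called higher (3502 of all 20134 genes tested). Of the 15 tested and not called, the 95% interval of the log2 fold change reached 1 or more in 13, so a fold of 2 lay within it. The upper bound stayed under 1 in *CAX1* and in *PPC3* (0.36, interval -0.16 to 0.89). Across all genes low in *quintuple*, 2419 of 2761 (87.6%) were called higher in *octuple*, against 57.6% of the 59. These shares are not on an equal footing, because the rule capped the 59 in *octuple* as well. Also, 2732 of the 2761 had enough counts to be tested, against 49 of the 59. The 2702 genes that were not members had a median ratio to WT of 0.866 in *octuple*. Their median ratio of *octuple* to *quintuple* was 2.83, against 3.53 in the 59.

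**Figure D2:**
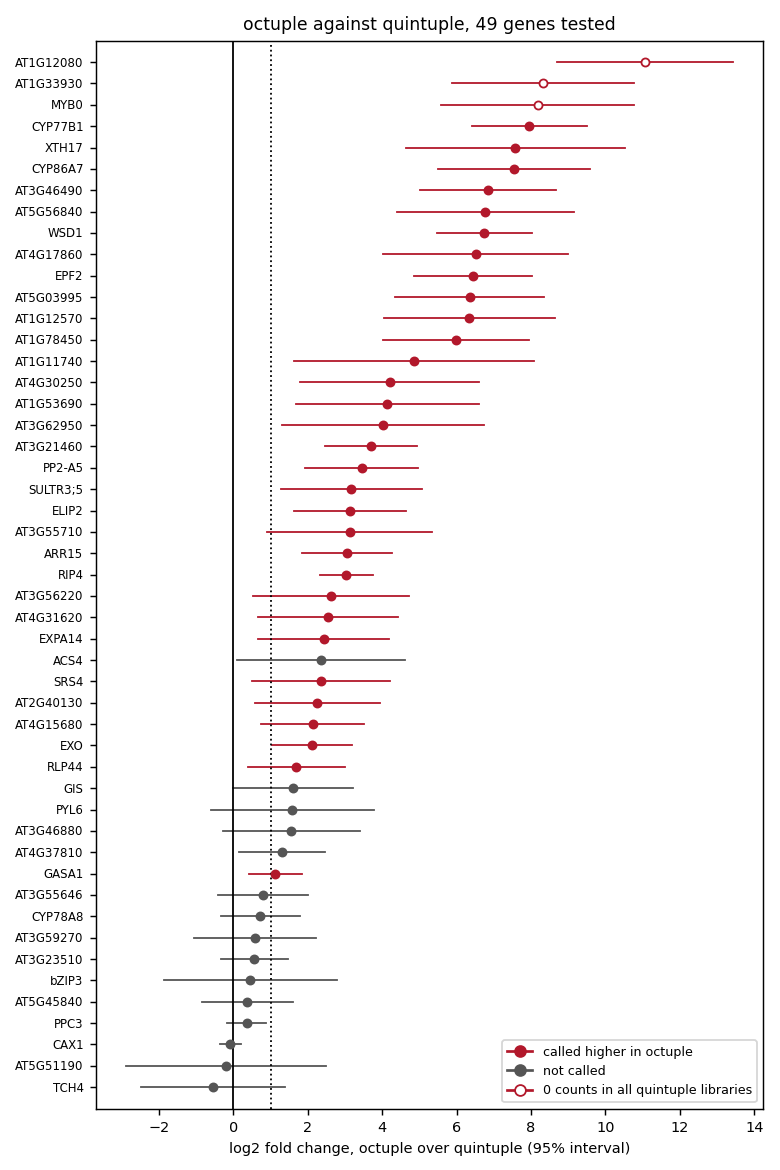
Log2 fold change of *octuple* over *quintuple* (horizontal) with its 95% interval for the 49 of the 59 genes that had enough counts to be tested in edgeR (one gene a line), with solid and dotted lines at 0 and 1. The 34 genes called higher are drawn in red and the 15 not called in grey, and open circles mark genes with 0 counts in all *quintuple* libraries, whose position depends on the prior count.

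*BT5* (AT4G37610) had the largest fold of all. It encodes a protein with a BTB and a TAZ domain, of a family whose members bind calmodulin. *BT5* had 0 counts in each of the 3 *octuple* and each of the 3 *quintuple* libraries. In *triple* it had 421, 387 and 250 counts, and in WT 231, 887 and 198 counts. As FPKM these were 7.34, 6.14 and 4.15 in *triple* and 3.82, 14.0 and 3.34 in WT, so that the 2 groups overlapped and 1 WT library stood above the other 5. Set against the limit that a count of 0 allows, taken as 3 counts over the 3 libraries of a mutant, *BT5* was at least 370.1-fold lower in *octuple* than in *triple* and at least 454-fold lower than in WT. In *quintuple* it was at least 335-fold lower than in *triple* and at least 411-fold lower than in WT. These bounds, like all counting intervals below, cover counting error only.

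No other member was at 0 in all 6 libraries of both mutants. *BT5* lies at chr4:17670481-17672353, minus strand, in TAIR10.1 coordinates. Its exons overlap those of *AT4G37608* on the opposite strand, which had means of 2.03 FPKM in *octuple*, 5.97 in *quintuple*, 1.71 in *triple* and 1.76 in WT. The strand setting of the counting is not given in the sources used here, so reads of the overlapping stretch cannot be assigned with certainty. The 3 next genes with counts on either side, *AT4G37608* among them, all had counts in both mutants. *NPY5*, for example, had means of 11.0 FPKM in *octuple*, 6.57 in *quintuple*, 14.8 in *triple* and 12.9 in WT, and *CYCD5;1* had 2.39 FPKM in *octuple*, 2.35 in *quintuple*, 2.40 in *triple* and 2.58 in WT. *BT5* is more than 50 kb from each of the 8 mutated genes.

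*CAX1* (AT2G38170) was likewise no higher in *octuple* than in *quintuple*, at a far higher level. It encodes a cation exchanger that loads calcium into the vacuole in exchange for protons. *CAX1* had 22.7, 21.4 and 24.8 FPKM in *octuple*, 24.5, 28.9 and 34.4 in *quintuple*, 284, 213 and 189 in *triple* and 256, 204 and 183 in WT. Both mutants formed a narrow band between 21.4 and 34.4 FPKM, and no library of *triple* or WT came below 183 FPKM. Behind these values stood 2668, 2572 and 2976 counts in *octuple* and 2572, 3089 and 3846 in *quintuple*, against 30690, 25316 and 21493 in *triple* and 29143, 24397 and 20392 in WT. The mean in *octuple* was 0.108 times that of WT, and the mean in *quintuple* 0.137 times. In *octuple*-vs-*quintuple* edgeR's quasi-likelihood test did not call *CAX1* (log2 fold change -0.08, SE 0.12, adjusted p = 0.589). The 95% interval of that log2 fold change was -0.37 to 0.20, so that a difference of 2 times between the mutants lies outside it.

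*BT5* and *CAX1* are the members with the largest folds, and the sequence before each gene is shown to let a reader see what stands there. The 300 bases before the annotated start, from TAIR10.1, are written 5′ to 3′ on the strand of the gene (chr4:17672354-17672653, minus strand for *BT5* and chr2:15993327-15993626, minus strand for *CAX1*). Capitals mark GGNCCC on either strand, a core of sites bound by TCP factors, and GAAATT on either strand, the core of sites bound by CBP60g and SARD1, where N is any base. Both promoters hold GGNCCC and neither holds GAAATT.
BT5: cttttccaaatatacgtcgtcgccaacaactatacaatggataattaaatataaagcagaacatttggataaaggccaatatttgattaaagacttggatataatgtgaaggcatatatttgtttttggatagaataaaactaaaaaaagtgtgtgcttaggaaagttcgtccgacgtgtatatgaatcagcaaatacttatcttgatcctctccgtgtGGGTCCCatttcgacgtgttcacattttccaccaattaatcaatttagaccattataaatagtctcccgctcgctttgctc
CAX1: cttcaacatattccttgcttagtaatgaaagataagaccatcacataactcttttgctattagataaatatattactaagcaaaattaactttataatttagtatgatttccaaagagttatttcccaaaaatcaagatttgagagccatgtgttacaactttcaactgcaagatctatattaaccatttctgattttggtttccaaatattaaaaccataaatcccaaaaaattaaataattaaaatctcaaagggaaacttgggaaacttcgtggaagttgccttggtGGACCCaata
A match gives letters only and does not show a bound site. GGNCCC stood in the 300 bases of 10 of the 59 genes (16.9%), of 9.54% of the genes at the minimum and of 8.75% of all genes. GAAATT stood in 24 of the 59 (40.7%), of 38.1% of the genes at the minimum and of 37.5% of all genes.

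The other transport genes were low to different degrees. *SULTR3;5* encodes a sulfate transporter that was first described in roots. It had 1.02, 0.517 and 0.393 FPKM in *octuple*, 0.175, 0.0430 and 0.0309 in *quintuple*, 2.82, 1.58 and 2.98 in *triple* and 3.17, 2.25 and 2.20 in WT. All *octuple* libraries lay above all *quintuple* libraries and below all *triple* and WT libraries. *SULTR3;5* was called higher in *octuple* than in *quintuple* (log2 fold change 3.17, SE 0.80, adjusted p = 0.0173), a call that was lost without *octuple* replicate 1 (adjusted p = 0.0538) and without *quintuple* replicate 2 (adjusted p = 0.0589). *GDU2*, a member of the GLUTAMINE DUMPER family that alters amino acid export, had means of 0.392 ± 0.286 FPKM in *octuple*, 0.0542 ± 0.00174 in *quintuple*, 1.52 ± 0.555 in *triple* and 0.960 ± 0.540 in WT (SD, n = 3 each). It had too few counts to be tested in *octuple*-vs-*quintuple*, and it lies 7.94 kb from *CBP60d*. The other member within 50 kb of a mutated gene was *TCH4*, at 5.99 kb from *CBP60b*. Within that distance lay 2 of the 59 members and 147 of the 16455 genes at the minimum, a contrast that was not tested.

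**Figure D3:**
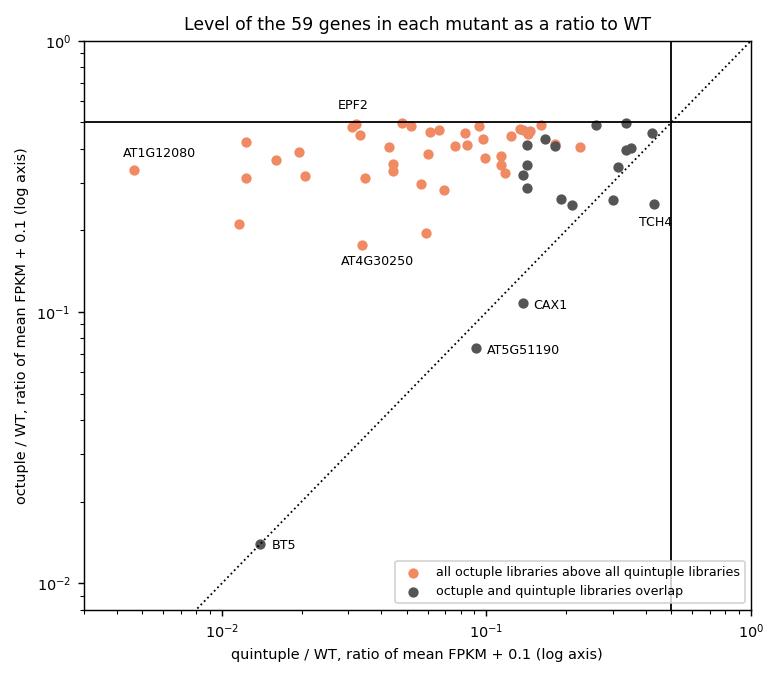
Ratio of the mean level (FPKM + 0.1) of each of the 59 genes to WT, in *octuple* (vertical, log axis) against *quintuple* (horizontal, log axis), with solid lines at the limit of 0.5 and a dotted line where both are equal. The 40 genes drawn in orange, whose *octuple* libraries all lay above the *quintuple* libraries, sit above the dotted line, and *BT5* and *CAX1* sit on it or near it.

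Genes of secreted peptides were among the members. EPF2 is released by cells that enter the stomatal lineage and limits further entry divisions around them. *EPF2* (AT1G34245) had 1.39, 1.75 and 2.15 FPKM in *octuple*, 0.0312, 0.0307 and 0 in *quintuple*, 3.30, 4.24 and 3.57 in *triple* and 3.13, 3.56 and 4.31 in WT. The *octuple* libraries lay between the *quintuple* libraries, which held 2 counts in all, and the others, and the *triple* and WT libraries overlapped. *EPF2* was called higher in *octuple* than in *quintuple* (adjusted p = 0.00121 in edgeR's quasi-likelihood test), and the pooled counts per fragment differed by 87.3 times (95% counting interval 23.8 to 726). *AT4G37810*, annotated as an EPIDERMAL PATTERNING FACTOR-like peptide, had 0.721, 0.805 and 1.46 FPKM in *octuple*, 0.346, 0.311 and 0.785 in *quintuple*, 1.73, 1.88 and 3.83 in *triple* and 2.47, 1.59 and 2.38 in WT. Its difference between *octuple* and *quintuple* was not called (log2 fold change 1.31, SE 0.48, adjusted p = 0.0610), with an interval of 0.16 to 2.46, but was called by DESeq2 (adjusted p = 0.0323), with all 12 libraries in the fit (adjusted p = 0.0286) and without *quintuple* replicate 3 (adjusted p = 0.0355).

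GASA1 belongs to a family of small cysteine-rich peptides, many of which respond to gibberellin. *GASA1* was the most abundant member, with 79.0, 157 and 112 FPKM in *octuple*, 50.1, 75.8 and 67.4 in *quintuple*, 166, 303 and 249 in *triple* and 292, 338 and 226 in WT. Even its lowest *quintuple* library was at 50.1 FPKM, so this transcript was low but far from absent. It was called higher in *octuple* than in *quintuple* (log2 fold change 1.13, SE 0.30, adjusted p = 0.0212), and it lay below the fold of 2 with scaling by library size alone (log2 fold change 0.85). The call was also lost without *octuple* replicate 2 (log2 fold change 0.79), *quintuple* replicate 1 (adjusted p = 0.0718) or *quintuple* replicate 3 (adjusted p = 0.0534). *AT3G13403*, a defensin-like peptide gene of 174 exonic bases, had means of 0.478 ± 0.195 FPKM in *octuple*, 0.186 ± 0.322 in *quintuple*, 1.33 ± 0.199 in *triple* and 1.91 ± 0.847 in WT (SD, n = 3 each). It had too few counts to be tested, and another gene overlaps it on its own strand.

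*MYB0*, better known as *GL1*, encodes the MYB factor that starts trichome formation in leaf epidermis. It had 1.20, 0.551 and 0.766 FPKM in *octuple*, 0, 0 and 0 in *quintuple*, 2.34, 1.69 and 2.53 in *triple* and 1.71, 1.23 and 2.55 in WT. With 0 counts in all *quintuple* libraries it was at least 31.4-fold higher in *octuple* than in *quintuple*, and it was called (adjusted p = 0.00387). *GIS*, a zinc finger gene of the trichome pathway, had 0.751, 0.966 and 3.02 FPKM in *octuple*, 0.863, 0.609 and 0.291 in *quintuple*, 2.45, 1.95 and 7.90 in *triple* and 2.34, 2.00 and 9.81 in WT. In *octuple*, *triple* and WT replicate 3 of *GIS* stood far above replicates 1 and 2, and the groups overlapped. Its difference between *octuple* and *quintuple* was not called (log2 fold change 1.60, SE 0.67, adjusted p = 0.0884).

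**Figure D4:**
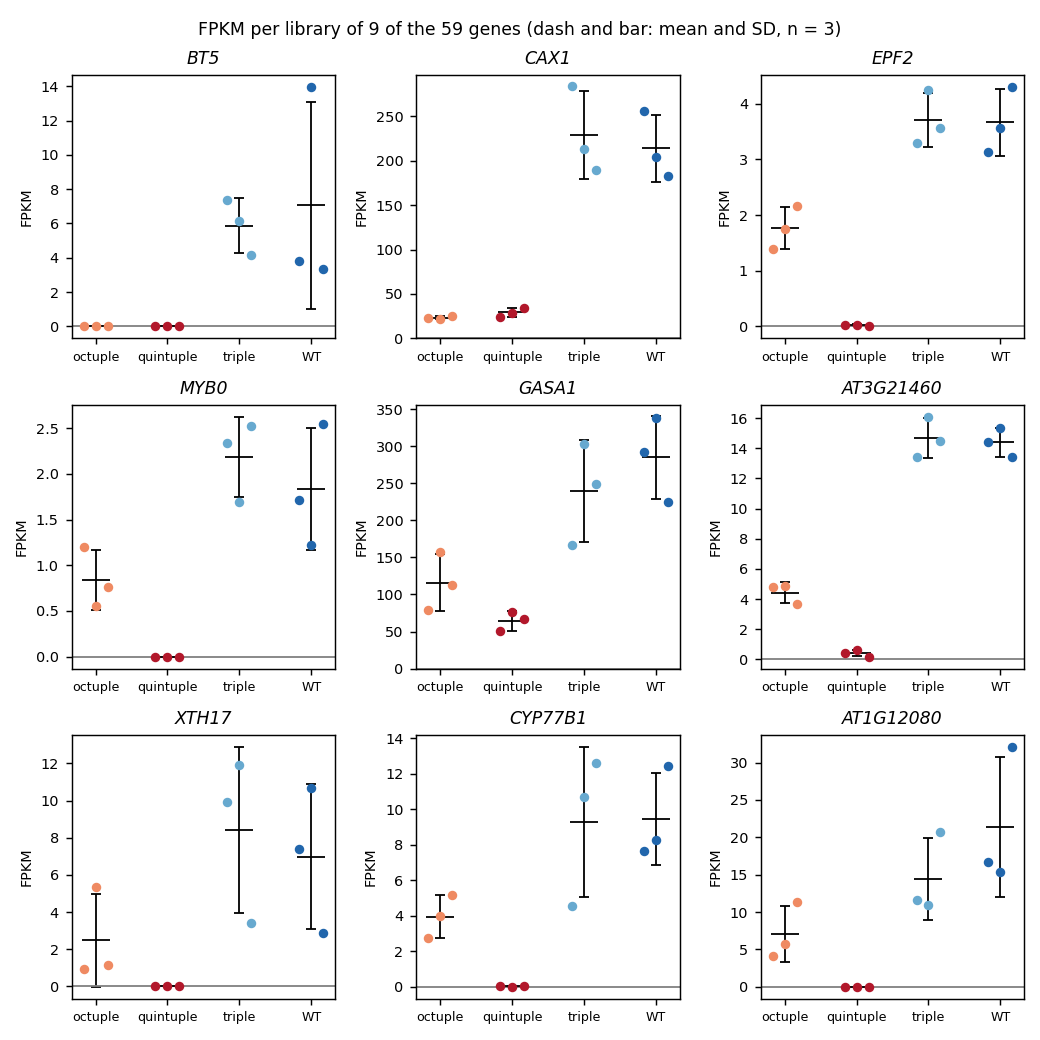
FPKM in each library (points) of 9 of the 59 genes in *octuple*, *quintuple*, *triple* and WT, with the dash and bar giving the mean and SD of 3 libraries. *BT5* is at 0 in both mutants, *CAX1* lies between 21.4 and 34.4 FPKM in both, and the other 7 genes show *octuple* libraries above the *quintuple* libraries.

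The epidermal genes can be read beside a list of stomatal patterning genes that holds *EPF2* and *AT4G37810*. For *AT4G37810* the annotation gives the peptide family and no stomatal role. Of the 20 genes of that list, 17 were called lower in *quintuple*-vs-WT, where 19.5% of all genes tested were called lower. *EPF2* and *AT4G37810* are among the 17, and the rule had chosen them for low levels in *quintuple*, so their calls add no support. In *octuple*-vs-WT 0 of the 20 were called in either direction by edgeR, with 0.151% of all genes called lower, and 1 was called lower with the replicate block (0.732%). *octuple*-vs-*quintuple* called 15 of the 20 higher and 0 lower, between 13 and 16 higher over the alternatives. Of all genes tested, 16.7% were called higher, and of all genes low in *quintuple* 87.6% were, so this rise is not particular to the list. Its median log2 fold change was 3.53 against 0.015 for all genes tested. Most of the list thus fell in *quintuple*, and its 2 members within the rule were near its limit in *octuple*, with ratios to WT of 0.495 for *EPF2* and 0.488 for *AT4G37810*.

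Each of the 5 markers of the epidermis also had its lowest mean in *quintuple*. They summed to between 288 and 311 FPKM in *octuple*, 37.9 and 76.7 in *quintuple*, 328 and 382 in *triple* and 353 and 360 in WT. The 5 guard cell markers summed to between 37.8 and 60.1 FPKM in *octuple*, 14.9 and 20.0 in *quintuple*, 34.6 and 78.0 in *triple* and 38.4 and 77.4 in WT. *GC1* made up most of the guard cell sum, with means of 40.6 FPKM in *octuple*, 4.44 in *quintuple*, 42.9 in *triple* and 41.7 in WT, whereas *KAT1* was highest in *quintuple*, with 3.90 FPKM in *octuple*, 10.2 in *quintuple*, 6.84 in *triple* and 5.56 in WT. None of these 10 markers was at 0 in any genotype. The epidermis sum in *octuple* lay below that of WT without overlap, at a ratio far nearer to 1 than the limit of 0.5 for the 59 genes, and the guard cell sums of *octuple* and WT overlapped. The part of these cell types in the levels of the 59 genes was not tested.

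Genes of the cuticle and of cytochromes P450 had the highest median ratio of *octuple* to *quintuple* among the role groups. Of 6 genes in this group, 4 were called higher in *octuple* than in *quintuple*, 2 were not called, and the median ratio was 11.9. The role groups were formed after the values had been seen, and the counts of calls in this and the other groups stand beside 57.6% of the 59, 87.6% of the genes low in *quintuple* and 16.7% of all genes tested, so they are given as a description. *CYP77B1* belongs to a P450 family that acts on fatty acids. It had 2.73, 3.98 and 5.15 FPKM in *octuple*, 0.0398, 0 and 0.0125 in *quintuple*, 4.55, 10.7 and 12.6 in *triple* and 7.64, 8.26 and 12.4 in WT, and with 4 counts in all *quintuple* libraries together it was called higher in *octuple* (log2 fold change 7.96, SE 0.65, adjusted p = 0.000901). Its lowest *triple* library lay below its highest *octuple* library, so the groups overlapped there. *CYP86A7* is of the family that makes the omega-hydroxy fatty acids of cutin. It had 0.816, 0.560 and 1.57 FPKM in *octuple*, 0, 0.0134 and 0 in *quintuple*, 2.42, 1.06 and 3.06 in *triple* and 2.26, 1.29 and 2.70 in WT, and its pooled counts per fragment were higher in *octuple* than in *quintuple* by 223 times (95% counting interval 39.6 to 8825), with an adjusted p of 0.00142. *WSD1* encodes the wax ester synthase of the stem and leaf surface, and had 1.54, 2.14 and 3.46 FPKM in *octuple*, 0.0376, 0.0246 and 0.0118 in *quintuple*, 4.79, 1.98 and 8.13 in *triple* and 6.68, 2.31 and 9.82 in WT. The *octuple* libraries of *WSD1* stood far above *quintuple* (log2 fold change 6.75, SE 0.53, adjusted p = 0.000883), and 2 of them lay above the lowest *triple* library. *AT1G12570*, a GMC oxidoreductase of the family of the cuticle gene *HOTHEAD*, was called as well (log2 fold change 6.34, SE 0.96, adjusted p = 0.00305), and an antisense gene overlaps it.

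*CYP78A8* and *AT3G23510* were the 2 genes of this group that were not called. *CYP78A8* had 1.91, 2.11 and 1.35 FPKM in *octuple*, 1.76, 1.39 and 0.721 in *quintuple*, 8.15, 11.4 and 6.96 in *triple* and 7.04, 8.08 and 6.45 in WT, so that the libraries of the mutants overlapped and all 6 lay at or below 2.11 FPKM while no *triple* or WT library was below 6.45 FPKM. The difference of *CYP78A8* between *octuple* and *quintuple* (log2 fold change 0.72, SE 0.44, adjusted p = 0.217) had an interval of -0.34 to 1.78. *AT3G23510*, a cyclopropane fatty acid synthase, had 0.492, 0.262 and 0.283 FPKM in *octuple*, 0.292, 0.270 and 0.274 in *quintuple*, 1.89, 0.558 and 0.411 in *triple* and 1.64, 0.739 and 0.700 in WT, with a difference between the mutants that was not called (log2 fold change 0.57, SE 0.38, adjusted p = 0.255). Replicate 1 carried its high level in *triple* and WT, and 17.4% of its 50-base stretches occur elsewhere in the genome, so its counts may be shared with a copy.

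The redox group held 3 genes annotated as glutaredoxins or in the thioredoxin superfamily and 1 oxygenase, and all 4 were called higher in *octuple* than in *quintuple*. *AT3G21460*, a glutaredoxin, had 4.77, 4.86 and 3.66 FPKM in *octuple*, 0.422, 0.603 and 0.180 in *quintuple*, 13.4, 16.1 and 14.5 in *triple* and 14.4, 15.4 and 13.4 in WT. Its *quintuple* libraries ran from 0.180 to 0.603 FPKM on 5 to 16 counts, the 4 genotypes formed 3 separate levels with *triple* and WT together, and *octuple* was called higher than *quintuple* (log2 fold change 3.70, SE 0.51, adjusted p = 0.00235). *AT3G46490*, an oxygenase that uses iron and 2-oxoglutarate, had 2.50, 2.93 and 4.23 FPKM in *octuple*, 0.0791, 0 and 0.0149 in *quintuple*, 12.5, 8.03 and 15.2 in *triple* and 7.23, 8.60 and 15.7 in WT. It was called with a log2 fold change of 6.85 (adjusted p = 0.00138). *AT3G62950* had means of 2.82 ± 2.00 FPKM in *octuple*, 0.208 ± 0.181 in *quintuple*, 6.27 ± 3.00 in *triple* and 7.07 ± 3.00 in WT (SD, n = 3 each), and *AT4G15680* of 6.33 ± 3.10 FPKM in *octuple*, 1.78 ± 0.909 in *quintuple*, 13.8 ± 7.00 in *triple* and 13.6 ± 4.41 in WT. The call of *AT4G15680* was lost with the replicate block (adjusted p = 0.0543).

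Cell wall genes differed in how far *octuple* stood above *quintuple*. Expansins loosen the wall under acid conditions, and xyloglucan endotransglucosylase/hydrolases cut and rejoin its xyloglucan. *XTH17*, one of the xyloglucan enzymes, had 0.928, 5.35 and 1.14 FPKM in *octuple*, 0.0208, 0.0204 and 0 in *quintuple*, 9.93, 11.9 and 3.39 in *triple* and 7.40, 10.7 and 2.89 in WT. Its *quintuple* libraries held 2 counts together, and *octuple* was called higher (adjusted p = 0.00379), with pooled counts per fragment higher by 185 times (95% counting interval 50.8 to 1529). *TCH4*, another of them and a gene induced by touch, had 5.84, 7.61 and 1.52 FPKM in *octuple*, 16.9, 5.46 and 3.53 in *quintuple*, 47.7, 9.61 and 2.62 in *triple* and 32.0, 25.5 and 3.19 in WT. Replicate 3 of *TCH4* was lowest in all 4 genotypes, the genotypes overlapped, and *octuple*-vs-*quintuple* was not called (log2 fold change -0.54, SE 0.81, adjusted p = 0.606, interval -2.47 to 1.39). *EXO*, which promotes leaf growth in response to brassinosteroids, had 17.1, 19.6 and 7.96 FPKM in *octuple*, 5.63, 3.53 and 3.25 in *quintuple*, 74.7, 12.1 and 12.3 in *triple* and 57.9, 27.0 and 9.42 in WT. The highest values of *EXO* in *triple* and WT came from replicate 1, and the higher level in *octuple* was called (log2 fold change 2.11, SE 0.45, adjusted p = 0.00990) but not with all 12 libraries in the fit (adjusted p = 0.0577).

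*EXPA14* was the only member among the 17 alpha-expansins of the list used here. It had 0.447, 0.384 and 0.503 FPKM in *octuple*, 0.167, 0.104 and 0.0142 in *quintuple*, 2.54, 2.01 and 1.66 in *triple* and 1.91, 0.996 and 1.79 in WT. The call in *octuple*-vs-*quintuple* (log2 fold change 2.43, SE 0.73, adjusted p = 0.0325) was lost without any 1 of the 3 *octuple* libraries or without *quintuple* replicate 2, with adjusted p between 0.0686 and 0.0878. Of the 16 alpha-expansins tested in that comparison, 7 were called higher and 0 lower, at a background of 16.7% higher and 14.9% lower. In *quintuple*-vs-WT 5 of 14 were called lower, *EXPA14* among them, and 1 higher, at a background of 19.5% each way. In *octuple*-vs-WT 1 of 15 was called lower, *EXPA14* itself, and 2 were called higher (background 0.151% lower and 1.78% higher). The rule had chosen *EXPA14* for low levels in these contrasts, so its own calls are description only. *AT2G20870*, a cell wall protein precursor, and *AT1G04660*, a glycine-rich protein, had 0 counts in all *quintuple* libraries. *AT1G04660* had 0.0986, 0.128 and 0.466 FPKM in *octuple*, 0, 0 and 0 in *quintuple*, 1.03, 1.98 and 1.75 in *triple* and 1.29, 1.43 and 2.07 in WT. Set against a floor of 3 counts, *octuple* was at least 13.0-fold higher than *quintuple* in *AT1G04660* and at least 21.7-fold higher in *AT2G20870*, although neither had enough counts for the fit.

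Regulators outside the trichome pathway were 7 in number, and 5 of them were called higher in *octuple* than in *quintuple*. *AT5G56840*, a MYB-like factor, had 0.656, 0.982 and 3.35 FPKM in *octuple*, 0, 0.0225 and 0.0216 in *quintuple*, 3.83, 5.49 and 6.84 in *triple* and 4.27, 5.54 and 6.64 in WT. Replicate 3 of *octuple* stood above the other 2, all *octuple* libraries lay below *triple* and WT, and the difference from *quintuple* was called (adjusted p = 0.00273). *AT1G53690*, which encodes a small subunit of RNA polymerase, had 0.808, 0.362 and 0.691 FPKM in *octuple*, 0.113, 0 and 0 in *quintuple*, 2.56, 3.36 and 1.77 in *triple* and 2.67, 2.97 and 1.38 in WT. It was called (log2 fold change 4.14, SE 1.03, adjusted p = 0.0168), but not without *octuple* replicate 1 (adjusted p = 0.0511) or without *quintuple* replicate 2 (adjusted p = 0.0507). *SRS4* of the SHORT INTERNODES family (log2 fold change 2.35, SE 0.77, adjusted p = 0.0436), *AT4G31620* of the B3 class (log2 fold change 2.54, SE 0.79, adjusted p = 0.0357) and *AT3G56220* (log2 fold change 2.62, SE 0.87, adjusted p = 0.0458) had adjusted p close to the threshold. The call of *SRS4* was lost with the replicate block (adjusted p = 0.0508).

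The other 2 regulators were not called. *bZIP3* had 1.77, 1.46 and 0.173 FPKM in *octuple*, 1.39, 1.34 and 0.228 in *quintuple*, 4.36, 3.37 and 0.712 in *triple* and 4.75, 3.52 and 0.663 in WT. In each genotype its replicate 3 was the lowest, and within each replicate number both mutants were below *triple* and WT. *AT5G51190*, of the ERF class of DNA-binding proteins, had 0.479, 0.0936 and 0 FPKM in *octuple*, 0.268, 0.342 and 0.176 in *quintuple*, 0.935, 1.65 and 0.124 in *triple* and 1.70, 9.40 and 0.453 in WT. A single WT library gave its WT mean most of its height, the genotypes overlapped, and an antisense gene shares its exons.

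Hormone genes came from several pathways. *ARR15*, a response regulator that is switched on by cytokinin and restrains its signalling, had 3.17, 2.53 and 1.24 FPKM in *octuple*, 0.216, 0.353 and 0.450 in *quintuple*, 5.44, 5.41 and 5.46 in *triple* and 4.78, 3.63 and 7.18 in WT. All 6 mutant libraries lay below the *triple* and WT libraries, and *octuple* was called higher than *quintuple* (log2 fold change 3.06, SE 0.51, adjusted p = 0.00404). *PYL6*, an abscisic acid receptor, had 2.20, 1.28 and 0.323 FPKM in *octuple*, 0.241, 1.07 and 0.211 in *quintuple*, 3.39, 4.10 and 0.742 in *triple* and 3.64, 5.29 and 0.801 in WT, with replicate 3 lowest in each genotype and no call (log2 fold change 1.58, SE 0.92, adjusted p = 0.194). *ACS4*, which makes the precursor of ethylene, had means of 0.416 ± 0.303 FPKM in *octuple*, 0.0977 ± 0.0701 in *quintuple*, 1.01 ± 0.864 in *triple* and 1.09 ± 0.804 in WT (SD, n = 3 each) and was called by DESeq2 and not by edgeR (adjusted p = 0.0779). *AT1G19830*, a SAUR gene of the auxin-responsive class, had 0.223, 0.245 and 0.463 FPKM in *octuple*, 0, 0 and 0.0292 in *quintuple*, 0.966, 0.962 and 1.03 in *triple* and 1.12, 0.765 and 1.14 in WT. Its *quintuple* libraries held 1 count, and the pooled counts per fragment were higher in *octuple* by 30.8 times (95% counting interval 5.16 to 1250), without enough counts for the fit.

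The same group held receptors and signalling proteins. *RLP44*, a receptor-like protein that links the state of the wall to brassinosteroid signalling, had means of 0.931 ± 0.312 FPKM in *octuple*, 0.346 ± 0.180 in *quintuple*, 2.30 ± 0.401 in *triple* and 2.37 ± 0.312 in WT (SD, n = 3 each) and was called higher in *octuple* than in *quintuple* (log2 fold change 1.69, SE 0.54, adjusted p = 0.0398). *AT2G40130*, annotated as a double Clp-N motif protein, had 0.794, 0.748 and 3.80 FPKM in *octuple*, 0.365, 0.615 and 0.283 in *quintuple*, 3.17, 1.80 and 9.23 in *triple* and 2.33, 1.82 and 8.19 in WT. In *octuple*, *triple* and WT its replicate 3 stood far above replicates 1 and 2, and its call (log2 fold change 2.26, SE 0.70, adjusted p = 0.0363) was lost with the replicate block (adjusted p = 0.0817). *AT5G45840*, a leucine-rich repeat receptor kinase gene, was not called (log2 fold change 0.37, SE 0.51, adjusted p = 0.574), with means of 0.441 ± 0.152 FPKM in *octuple*, 0.395 ± 0.200 in *quintuple*, 1.35 ± 0.805 in *triple* and 1.48 ± 0.245 in WT.

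Genes of metabolism, binding and light made up 12 of the 59, and 9 of the 10 tested were called higher in *octuple* than in *quintuple*. *AT1G12080*, annotated as a vacuolar calcium-binding protein, showed the largest difference. It had 4.12, 5.74 and 11.4 FPKM in *octuple*, 0, 0 and 0 in *quintuple*, 11.6, 10.9 and 20.7 in *triple* and 16.7, 15.3 and 32.1 in WT. With 787 counts in the 3 *octuple* libraries against 0 in *quintuple*, it was at least 237-fold higher in *octuple*, and the adjusted p was 0.00168. *AT1G33930*, of the P-loop hydrolase class, likewise had 0 counts in *quintuple*. It had 0.417, 0.679 and 0.866 FPKM in *octuple*, 0, 0 and 0 in *quintuple*, 1.77, 1.11 and 1.56 in *triple* and 1.31, 1.47 and 1.83 in WT, at least 34.7-fold higher in *octuple* than in *quintuple* (adjusted p = 0.00325).

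*AT1G12080* and *EXO* hold GAAATT and no GGNCCC before their start. *AT1G12080* had the largest ratio of *octuple* to *quintuple*, and *EXO* the third highest level in WT, after *GASA1* and *CAX1*. The promoters printed all hold a marked motif, whereas those of *GASA1*, *EPF2*, *CYP77B1* and other members hold neither. They are examples and do not stand for the 59. The same 300 bases before the start are written as for *BT5* and *CAX1*, at chr1:4083862-4084161, plus strand for *AT1G12080* and chr4:5739919-5740218, plus strand for *EXO*, with GAAATT on either strand in capitals.
AT1G12080: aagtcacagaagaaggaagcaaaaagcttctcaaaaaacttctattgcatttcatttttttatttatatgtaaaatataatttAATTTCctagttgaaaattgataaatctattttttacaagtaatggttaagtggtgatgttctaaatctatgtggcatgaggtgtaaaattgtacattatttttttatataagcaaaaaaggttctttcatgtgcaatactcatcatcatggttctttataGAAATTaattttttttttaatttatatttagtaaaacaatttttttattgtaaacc
EXO: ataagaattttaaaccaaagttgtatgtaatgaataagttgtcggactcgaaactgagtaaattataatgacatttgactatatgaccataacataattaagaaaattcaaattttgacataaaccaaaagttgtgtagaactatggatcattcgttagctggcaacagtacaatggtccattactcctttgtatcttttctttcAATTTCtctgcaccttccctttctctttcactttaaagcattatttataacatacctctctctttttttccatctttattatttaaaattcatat
Other motifs searched on both strands were held by the 59 at shares of 5.08% for TGGGCC, 6.78% for CACGTG, 39.0% for TTGAC and 15.3% for AATATCT. The genes at the minimum had 19.0%, 8.02%, 49.1% and 11.8% in that order. The motif TGGGCC is a site of TCP factors and can overlap with GGNCCC sites, CACGTG is the G-box, TTGAC the core of WRKY sites, and AATATCT the core of the evening element of clock-controlled genes.

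*AT4G30250*, another P-loop hydrolase gene, and *AT1G78450*, of the SOUL heme-binding class, had folds among the highest of the 59. *AT4G30250* had 0.883, 0.447 and 0.541 FPKM in *octuple*, 0.0119, 0.105 and 0 in *quintuple*, 5.06, 3.67 and 3.40 in *triple* and 5.82, 2.67 and 3.50 in WT. It was called (log2 fold change 4.20, SE 1.00, adjusted p = 0.0147), but not without *quintuple* replicate 1 (adjusted p = 0.0516). *AT1G78450* had 1.38, 1.82 and 4.38 FPKM in *octuple*, 0.0542, 0 and 0.0763 in *quintuple*, 10.0, 6.43 and 17.4 in *triple* and 6.31, 5.39 and 25.2 in WT, with replicate 3 highest in all of *octuple*, *triple* and WT and a call in *octuple*-vs-*quintuple* (log2 fold change 5.98, SE 0.82, adjusted p = 0.00223). *ELIP2*, which protects thylakoids in high light, had 6.68, 2.43 and 2.11 FPKM in *octuple*, 0.739, 0.419 and 0.347 in *quintuple*, 21.0, 4.99 and 4.91 in *triple* and 20.1, 4.29 and 5.37 in WT. Its replicate 1 was highest in every genotype, and *octuple* was called higher than *quintuple* (log2 fold change 3.14, SE 0.63, adjusted p = 0.00766). *PPC3*, a phosphoenolpyruvate carboxylase gene, had 1.52, 1.51 and 2.42 FPKM in *octuple*, 1.31, 1.86 and 1.87 in *quintuple*, 4.71, 4.17 and 3.33 in *triple* and 4.43, 4.12 and 3.77 in WT, with overlap of the mutants and none of them with *triple* or WT. *RIP4*, whose family binds ROP GTPases, was called (log2 fold change 3.04, SE 0.29, adjusted p = 0.00117), as were *PP2-A5* (log2 fold change 3.45, SE 0.63, adjusted p = 0.00571), *AT3G55710*, a glycosyltransferase gene (adjusted p = 0.0308), and *AT1G11740*, an ankyrin repeat gene (adjusted p = 0.0243). *AT5G39220*, of the alpha/beta-hydrolases, and *AT3G16120*, of dynein light chains, had too few counts to be tested.

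The last 7 genes are little described, and 2 of them were called higher in *octuple* than in *quintuple*. These were *AT4G17860* (pooled counts per fragment higher by 109 times (95% counting interval 19.1 to 4323), adjusted p = 0.00360) and *AT5G03995* (higher by 94.1 times (95% counting interval 16.5 to 3751), adjusted p = 0.00200). *AT3G59270*, with an FBD-like domain, had 0.197, 0.428 and 0.364 FPKM in *octuple*, 0.147, 0.505 and 0.138 in *quintuple*, 1.57, 1.56 and 1.26 in *triple* and 1.67, 1.70 and 1.52 in WT. Its 6 mutant libraries were all at or below 0.505 FPKM, its *triple* and WT libraries all at or above 1.26 FPKM, and its difference between the mutants was not called (log2 fold change 0.57, SE 0.68, adjusted p = 0.518). *AT3G55646* had 4.44, 3.36 and 3.59 FPKM in *octuple*, 2.85, 3.78 and 1.01 in *quintuple*, 11.2, 12.1 and 10.1 in *triple* and 6.87, 8.06 and 8.30 in WT and was not called (log2 fold change 0.80, SE 0.50, adjusted p = 0.227), nor was *AT3G46880* (log2 fold change 1.56, SE 0.77, adjusted p = 0.135). *AT5G46871* had 0.871, 0.204 and 0.136 FPKM in *octuple*, 0.974, 0.268 and 0.220 in *quintuple*, 3.29, 1.96 and 0.899 in *triple* and 3.98, 1.16 and 0.403 in WT. In each genotype its level was highest in replicate 1 and lowest in replicate 3, and 11.7% of its 50-base stretches occur elsewhere. *AT2G36030*, of 213 exonic bases, had means of 1.67 ± 1.13 FPKM in *octuple*, 0.431 ± 0.178 in *quintuple*, 4.51 ± 1.48 in *triple* and 4.59 ± 1.05 in WT (SD, n = 3 each) and was not tested.

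None of the genes of the 4 further lists, on growth, division, glucosinolates and the clock, was among the 59, and they are given for scale. Of all genes tested, 19.5% were called lower and 19.5% higher in *quintuple*-vs-WT, 0.151% lower and 1.78% higher in *octuple*-vs-WT, and 16.7% higher and 14.9% lower in *octuple*-vs-*quintuple*. Of 21 leaf growth factor genes, 14 of 20 tested were called lower and 1 higher in *quintuple*-vs-WT, 1 of 21 was called lower in *octuple*-vs-WT (2 with the replicate block, where 0.732% of all genes were), and 9 of 17 were called higher and 1 lower in *octuple*-vs-*quintuple*. Among 15 cell division genes *quintuple*-vs-WT called 11 lower and *octuple*-vs-*quintuple* 8 higher, while *octuple*-vs-WT called 0. Of 19 genes of aliphatic glucosinolate synthesis, *quintuple*-vs-WT called 4 lower and 2 higher, *octuple*-vs-WT called 0 (1 higher with the block, where 5.07% of all genes were), and *octuple*-vs-*quintuple* called 3 higher and 1 lower. The counts of 4 and 3 are near the shares of all genes, and the count of 3 lay between 0 and 3 over the alternatives. Of 11 circadian clock genes, 1 was called higher in *quintuple*-vs-WT (4 with the replicate block, where 19.9% of all genes were) and 0 in *octuple*-vs-*quintuple* (3 lower with the block, where 15.3% of all genes were). Each of the 6 lists had 0 calls in *triple*-vs-WT. The summed markers of xylem and of the shoot meristem were also lower in *quintuple*, but not every marker was. The 4 xylem markers summed to 45.3 to 55.2 FPKM in *octuple*, 9.59 to 14.5 in *quintuple*, 38.3 to 51.3 in *triple* and 42.9 to 55.9 in WT. The 6 shoot meristem markers summed to 7.52 to 11.9 FPKM in *octuple*, 4.32 to 5.76 in *quintuple*, 11.9 to 17.3 in *triple* and 10.1 to 16.8 in WT. *XCP1* and *XCP2* made up most of the xylem sum, while *IRX3* had means of 3.29 FPKM in *octuple*, 3.63 in *quintuple*, 2.98 in *triple* and 2.80 in WT. Among the meristem markers *KNAT1* was highest in *quintuple*, with means of 2.31 FPKM in *octuple*, 3.43 in *quintuple*, 1.97 in *triple* and 2.03 in WT. *WUS* was at 0 in every genotype but *octuple*, where it had 0.0181 FPKM. The part of these markers in the levels of the 59 genes was not tested.

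Loss of *EDS1*, *PAD4* and *NDR1* alone left no call among the 59 genes in edgeR without a replicate block. In *triple*-vs-WT all 59 were tested and 0 were called by edgeR, as were 0 of all 18992 genes tested (0% in each direction), and at an unadjusted p below 0.05 there was 1 of the 59 and 419 in all. DESeq2 called 0 of the 59, with 0.0264% of all genes called higher and 0.15% lower. Even *EDS1*, with means of 1.89 FPKM in *triple* and 7.88 in WT, was not called, so the lack of a call does not show equal levels. The 95% interval of the log2 fold change was -2.83 to 2.70 in *TCH4* and -0.49 to 0.44 in *PPC3*. The median log2 fold change was 0.0032 for the 59 and 0.0054 for all genes tested. *AT3G55646* was the gene with the low unadjusted p (log2 fold change 0.52, SE 0.16, adjusted p = 1.00), and its *triple* libraries all lay above its WT libraries. This separation was seen in 1 of the 59 in that direction and in 0 in the other, against 2.94% and 2.35% of the genes at the minimum. With the replicate number as a block *AT5G51190* was called lower in *triple* (-2.12 without the block, adjusted p = 0.0307 with it), where 0.49% of all genes were called lower and 0.0579% higher. The same libraries had to reach 1 FPKM in both genotypes, so these counts describe genes chosen to be present in each.

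How often the contrasts of the rule themselves were called is given as a description, since they chose the genes. In *quintuple*-vs-WT 55 of the 59 were called lower (19.5% of all genes tested) and in *quintuple*-vs-*triple* also 55 (20.2%). In *octuple*-vs-WT 10 were called lower, where 0.151% of all genes were, and in *octuple*-vs-*triple* 12, where 0.125% were. With the replicate number as a block these counts were 48 each, against 0.732% and 0.639% of all genes, and in DESeq2 they were 30 and 35, against 0.567% and 0.45%. The 2 contrasts with WT share the WT libraries, and the 2 with *triple* share the *triple* libraries.

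Levels of many of the 59 went with the replicate number. The same number was the highest of 3 in all of *octuple*, *triple* and WT for 30 of them (50.8%), close to the 47.9% of all genes at the minimum, and it was replicate 3 in 17, replicate 2 in 7 and replicate 1 in 6. It was replicate 3 for *AT2G40130*, *GIS* and *AT1G78450*, replicate 2 for *XTH17* and replicate 1 for *ELIP2*. The split over the 3 numbers was not counted for all genes. The labels do not say what a number stands for beyond a replicate. Within single numbers, the ratios of the rule were met in 44 genes for replicate 1, in 32 for replicate 2 and in 35 for replicate 3. They were met in each of the 3 numbers in 17 genes, among them *BT5*, *CAX1*, *SULTR3;5*, *CYP78A8*, *EXPA14*, *AT3G21460* and *bZIP3*.

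The pattern was also read in libraries that had not chosen the genes. When the rule was applied to 2 replicate numbers and its ratios were read in the 4 libraries of the other number, 30 of 52 genes (57.7%) met them in replicate 1, 25 of 62 (40.3%) in replicate 2 and 22 of 63 (34.9%) in replicate 3. Of all genes at the minimum, 0.561%, 0.467% and 0.375% met the ratios in the same libraries. Pooled over the 3 numbers, 77 of 177 (43.5%) met them in the libraries held out. Genes chosen on 2 numbers are not the 59 themselves, since 41 of the 52, 47 of the 62 and 44 of the 63 are among the 59, and a gene can be counted under more than 1 number. Leaving out 1 library at a time, 22 of the 59 genes stayed in the set throughout and 37 left it at least once.

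The 59 genes were spread over the genome and shared no single function. All were annotated as protein coding, and 17 lay on chromosome 1, 7 on chromosome 2, 15 on chromosome 3, 9 on chromosome 4 and 11 on chromosome 5. The genes at the minimum lay there at shares of 26.3%, 15.0%, 20%, 15.2% and 23.4% in that order. The median exonic length was 1238 bases, against 1809 bases for genes at the minimum. By the words of the annotated product, peptide ligands made up 5.08% of the 59 and 0.170% of the genes at the minimum. Cytochromes P450 made up 5.08% and 0.632%, cell wall proteins 5.08% and 1.10%, and redox proteins 6.78% and 1.58%. The redox words found *AT1G12570* and not *AT3G46490*, so their set differs from the redox group described above. Transporters (3.39% and 2.45%) were at shares near those of all genes, and proteins of proteolysis were 0 of the 59 and 3.31% of the genes at the minimum. Other kinases and phosphatases were 0 of the 59 and 1.89%. The words for lipids and cuticle found 0 of the 59 and 0.717%, and so missed *WSD1*. The words for transcription factors gave 3.39% and 2.67%. They found *AT5G56840* and *MYB0* only, and missed regulators described above such as *bZIP3*, *GIS* and *AT4G31620*. These shares therefore do not measure how common such factors were among the 59. The words for peptide ligands likewise missed *EPF2*, which is annotated as a putative membrane lipoprotein, so that share too depends on the wording. Each of these shares rests on at most 4 of the 59 genes, and none was tested. Exons of 8 of the 59 overlap those of another gene.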

How the data were processed

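RNA of aerial parts of pooled seedlings was sequenced in 12 libraries (*octuple*, *quintuple*, *triple* and WT, 3 each). The authors deposited raw counts per gene and FPKM. The submitters' processing notes name HISAT2, HTSeq and R 3.2.0, while build, annotation and strand setting are not given in the sources used here. The FPKM equal the counts per library total and RefSeq TAIR10.1 exon length in all 23784 genes, so that the deposited FPKM carry no correction for composition, and coordinates and promoters were read from TAIR10.1. Files of single samples repeat columns of the whole table and were used once. The members and gene lists were chosen with earlier results of these data known, and roles were assigned after their values had been seen.

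Counts were fitted in edgeR 4.0.16 (R 4.3.3) with TMM factors, filterByExpr and quasi-likelihood tests on the 6 libraries of a comparison, without a block, and adjusted by Benjamini-Hochberg over all genes tested. The scripts were tested on simulated data. Alternatives were the replicate block, DESeq2 1.42.0, RLE factors, library size only, no filter, all 12 libraries and leaving out each library. Level ratios used FPKM with 0.1 added to each mean. The study's methods call the replicates independent, but neither they nor the labels say whether these were grown separately, so p-values measure the spread between these libraries, which may be technical in part. Samples of equal number deviated together (r = 0.18 to 0.79 in 18 pairs, -0.59 to 0.27 in 36 pairs of different number), so the numbers may pair the samples. The main fits had no block and therefore leave such pairing out, and only the replicate block takes it into account. In *octuple*-vs-WT the block moved the members called lower from 10 to 48, so the main calls depend on this choice. A library total of 38698646 to 44294404 puts 3 counts, the floor used for a gene at 0, at 0.0677 to 0.0775 CPM.

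Genes described in full were the 12 with the largest fold, the 6 with the highest WT mean, up to 5 with the largest called change in each direction of *octuple*-vs-*quintuple* and *triple*-vs-WT, those in the fixed lists or the product groups for transcription factors, peptides and auxin, and the 3 on each side of the threshold. The other members were described by role after their values had been seen. Product groups were matched on the start of words of the RefSeq product or symbol.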

Additional observations from a re-analysis of the deposited data

How the results depend on the processing

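The set of genes depended on its limits. It held 59 genes, 19 with 1 added to each mean in place of 0.1, and 16 with ratios of at most 1 in 3 in place of 1 in 2. It held 66 with TMM scaling (all 59 among them), 60 with 0 added (53 shared), 71 by medians (47 shared), 40 with a minimum of 2 FPKM and 82 with a minimum of 0.5 FPKM. Leaving out 1 library gave 51 to 118 genes. The 118 came without *octuple* replicate 3, with 45 of the 59 among them. The share of genes that met the ratios in held-out libraries was 41.7% with TMM scaling and 42.4% with 1 added, against 43.5%.

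With the replicate block, 31 of the 34 genes called higher in *octuple*-vs-*quintuple* were called, the calls of *AT2G40130*, *SRS4* and *AT4G15680* being lost, and 1 gene was called lower in *triple*-vs-WT in place of 0. The block also moved *octuple*-vs-WT to 48 genes called lower in place of 10 and *octuple*-vs-*triple* to 48 in place of 12, and it changed no other call among the genes described in full. The count of 34 was 44 with DESeq2, 34 with RLE factors, 30 with library size only, 38 without a filter, 41 with all 12 libraries and 25 to 34 without 1 library, and 20 genes were called in all 6 fits that left out a library. Of all genes tested, 17.1% were called higher with DESeq2 and 12.5% with library size only. The numbers were 3267 of 19643 with RLE factors, 3393 of 23154 without a filter and 3502 of 20134 with all 12 libraries. Without 1 library they ran from 2811 of 19950 to 3209 of 19916. With 1 library left out, an arm of 2 shared the estimate of spread with the other arm. Scaling by library size only brought the all-gene median of that log2 fold change to -0.24 and the share of calls that were higher to 38.5%, against 52.8%, while 0 of the 59 were called lower in that comparison under any of these settings. Over the genes described in full, 595 values kept their side of the threshold, 14 lost it, 3 gained it and 0 changed direction. Depth limits the 10 genes not tested and the 14 with over 3 counts in *octuple* and 3 or fewer in *quintuple*, where a ratio is a bound or has a wide counting interval.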
